A study of Mus musculus with 20 samples.

Results

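The 38 genes described here encode the proteins that license, open and copy DNA in S phase, supply its nucleotides and pack the new strands. They were chosen by symbol as named parts of DNA replication, 38 of the 24421 genes in the deposited count tables. All 38 passed the filter on low counts, which left 12132 genes for testing. They were measured by RNA sequencing in bone marrow-derived macrophages (BMDM), cells grown from mouse bone marrow with medium conditioned by L929 fibroblasts as a source of CSF-1, the growth factor of macrophages. Cells from 5 mice were each treated for 48 h with 4 formulations, so that every mouse gave 1 library per formulation and 20 in all. LP 3M PIC is the dual formulation, LP 3M and LP PIC each carry a single adjuvant, and LP is taken to be the lipoparticle alone, which all 4 conditions share and which serves as the control. The sources used here do not give the amounts of each adjuvant, what the codes 3M and PIC stand for, or the strain, sex and age of the mice, and no cells without a particle were analysed here.

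Replication starts when the origin recognition complex, Cdc6 and Cdt1 load the ring-shaped MCM helicase onto DNA. Cdc45 and the GINS complex then switch the helicase on, primase and polymerase alpha lay down primers, and polymerases epsilon and delta extend them while held by the sliding clamp PCNA. Most of these genes are transcribed as E2F factors are released from the retinoblastoma protein late in G1, and CSF-1 is known to keep macrophages in culture dividing.

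Nearly the whole set was lower in LP 3M PIC and LP PIC than in LP, and a few of its genes fell, by less, in LP 3M. Levels are in CPM, which scales a gene's count to the total gene count of its library. The 38 genes together made up 590 to 855 CPM in LP 3M PIC (median 769), 1347 to 1704 CPM in LP 3M (median 1496), 624 to 737 CPM in LP PIC (median 656) and 1570 to 2484 CPM in LP (median 2087). Every LP 3M PIC and LP PIC library was therefore below every LP 3M and LP library, the LP 3M and LP ranges overlapped, and within each of the 5 mice LP 3M was below LP. Calls come from the edgeR quasi-likelihood test at an adjusted p under 0.05 (Benjamini-Hochberg, with every tested gene counted), and the words rose and fell are kept for called genes. Against LP, 35 of the 38 fell in LP 3M PIC and 0 rose (median log2 change −1.42), beside 30.6% of all tested genes called lower and 31.7% called higher. In LP 3M 7 fell and 0 rose (median −0.22), beside 19.5% of all tested genes called lower and 20.0% called higher. In LP PIC all 38 fell (median −1.59), beside 22.7% of all tested genes called lower and 22.7% called higher. The share of the 38 called lower was thus far above that of all genes with PIC present, and for LP 3M alone it was close to that of all genes. The 38 were chosen with earlier results of these data known, so this comparison is a description and not a test. Of 42 other replication machinery genes, described below, 26 fell and 6 rose in LP 3M PIC, and 27 fell and 2 rose in LP PIC.

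As bulk RNA, these libraries cannot tell fewer cells in S phase from less of these mRNAs per cell. Groups did not overlap for 31 of the 38 genes between LP 3M PIC and LP, for 4 between LP 3M and LP, and for 38 between LP PIC and LP, in each case with LP higher. Over all tested genes the shares that lay entirely below LP were 27.9%, 19.4% and 19.2% in these comparisons, so the 4 genes in LP 3M are fewer than that share of the set would be. Lower values than in the LP library of the same mouse were found in 5 of 5 mice for 36 genes in LP 3M PIC, 20 in LP 3M and 38 in LP PIC. The share of all tested genes with such values was not computed. On plain library totals, as used for CPM, the median log2 change of all tested genes was itself below 0. It was −0.10 in LP 3M PIC, −0.12 in LP 3M and −0.04 in LP PIC. The mean level of a gene was, at the median over the 38, 34.4% of its LP mean in LP 3M PIC, 79.7% in LP 3M and 32.2% in LP PIC. Rrm2 was at the bottom of that range with 12.1% in LP 3M PIC and 8.03% in LP PIC, and Pcna was at the bottom in LP 3M with 49.7%.

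**Figure D1:**
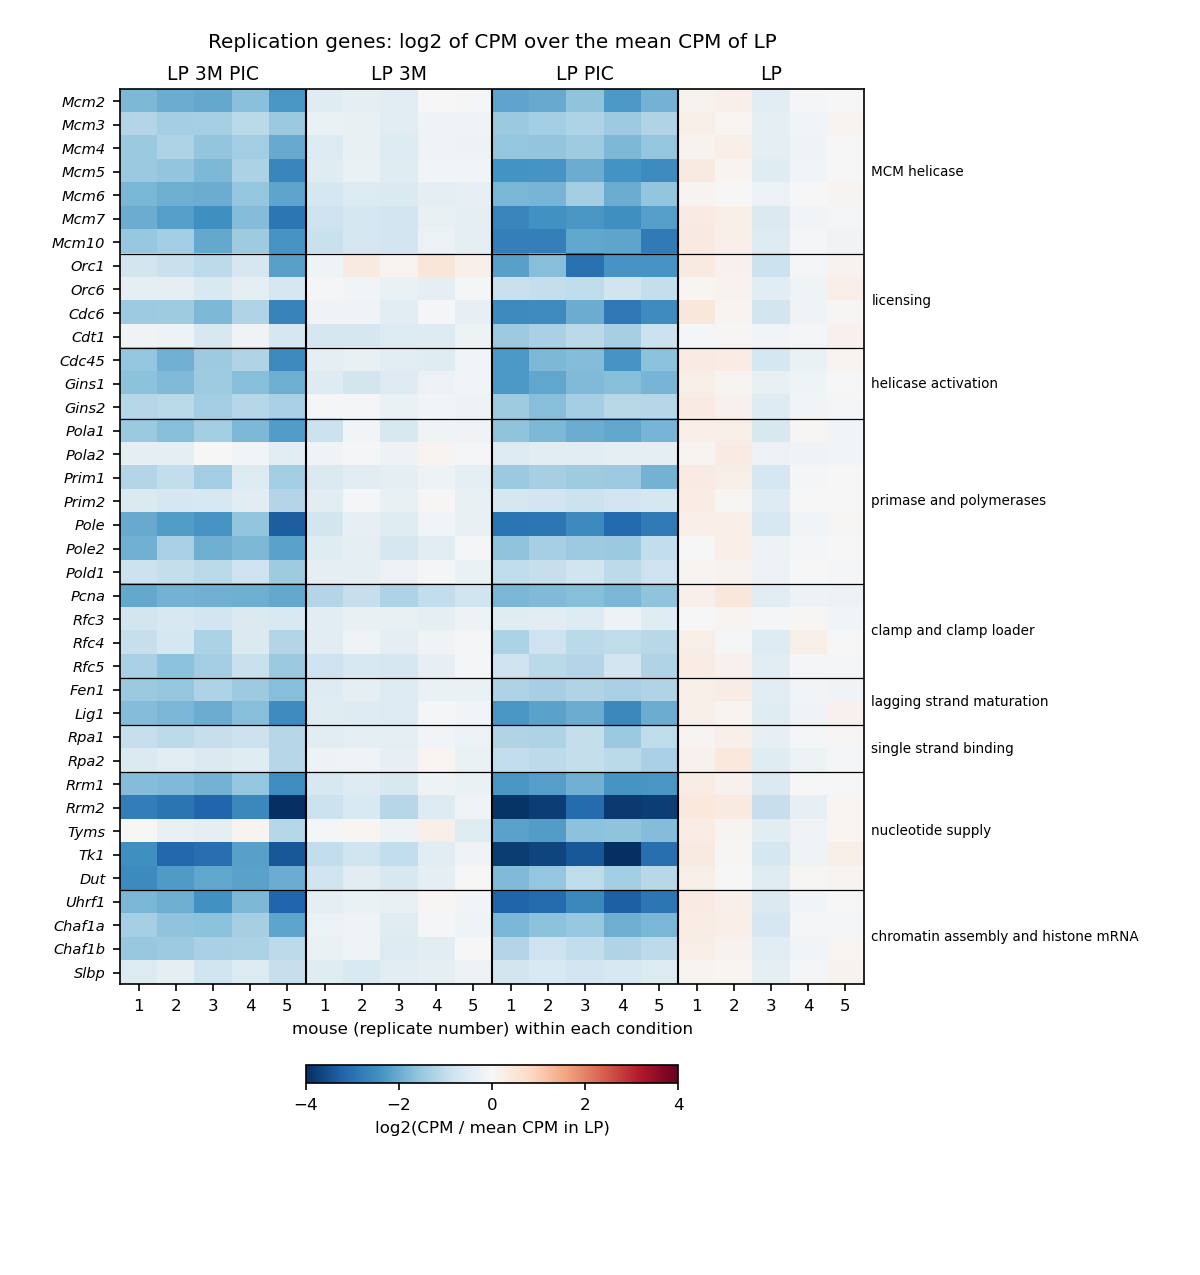
Each row is one of the 38 replication genes, grouped by role, and each column a library of mice 1 to 5 in LP 3M PIC, LP 3M, LP PIC and LP. Colour is the log2 ratio of a gene's CPM to its mean CPM in LP. The LP 3M PIC and LP PIC columns are blue in nearly every row, the LP 3M columns are pale, and within LP the column of mouse 3 is the bluest.

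Total gene counts per library ran from 9740528 to 23874805, with a median of 22751911, and the lowest count of any of the 38 genes in a library was 11 (0.482 CPM). The 8 macrophage markers summed to 11011 to 16043 CPM in LP 3M PIC, 20617 to 26685 CPM in LP 3M, 13390 to 19685 CPM in LP PIC and 11370 to 18816 CPM in LP, so that every LP 3M library was above all others. Against LP, 4 of the 8 fell and 2 rose in LP 3M PIC, 2 fell and 3 rose in LP 3M, and 0 fell and 1 rose in LP PIC. Among LP libraries mouse 3 had the lowest sum of replication genes (1570 CPM) and the lowest level of 37 of the 38, and among LP 3M PIC libraries mouse 5 had the lowest sum (590 CPM) and the lowest level of 32. The 7 myeloid progenitor markers, which mark cells that divide in marrow cultures, summed to 1.07 to 2.55 CPM in LP 3M PIC, 0.681 to 5.58 CPM in LP 3M, 3.11 to 9.64 CPM in LP PIC and 8.52 to 39.7 CPM in LP, with Ms4a3 at 0 in all 4 conditions, Flt3 also in LP 3M, and Prtn3 and Ctsg also in LP. The highest progenitor sum, 39.7 CPM, came from a single library, LP of mouse 3, and the relation of these sums to the replication genes was not tested. The 8 neutrophil markers found in the tables summed to 26.2 to 639 CPM in LP 3M PIC, 29.4 to 138 CPM in LP 3M, 11.6 to 25.4 CPM in LP PIC and 7.36 to 12.1 CPM in LP, and the 5 dendritic cell markers to 6.07 to 46.0 CPM in LP 3M PIC, 0.305 to 0.796 CPM in LP 3M, 1.21 to 6.97 CPM in LP PIC and 0 to 0.179 CPM in LP. Elane was at 0 in LP 3M and in LP, Cxcr2 in LP 3M PIC and in LP, and Xcr1 or Siglech in each condition. Only 1 of 5 listed dendritic cell markers, 3 of 9 neutrophil markers and 2 of 7 progenitor markers passed the filter on low counts. A sum of such a list does not by itself show that the cell type was present. Markers of T and NK cells, B cells and erythroid cells summed to at most 2.12 CPM in any library, with Cd3e and Hba-a1 at 0 in all 4 conditions, and the 6 fibroblast markers to 16.02 to 113 CPM. Whether other cell types had a part in the results was not tested.

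The promoter windows of the members are shown because the genes moved together and E2F sites are a known feature of replication promoters. RefSeq windows on GRCm38.p6, from 250 bases before to 50 after a transcription start, were found for 33 of the 38 genes, in 38 windows, and Prim2, Pole, Gins2, Mcm4 and Gins1 had no entry. For 27 of the 33 genes the bases after the start were found near the 5′ end of a GENCODE transcript. Positions below are counted from the RefSeq start. An E2F site was searched as TTTCCCGC, TTTCGCGC, TTTGCCGC or TTTGGCGC on either strand, and a match is a description of the letters, not of binding. It was present in 13 of the 38 windows (34.2%), each from a different gene, against 3.89% of 11825 windows of tested genes and 2.27% of all 32851 windows. The genes were Cdc6, Cdt1, Lig1, Mcm3, Mcm5, Mcm6, Mcm7, Orc1, Pola1, Pold1, Pole2, Rfc3 and Uhrf1. A CCAAT box (CCAAT, either strand) was in 57.9% of the members' windows, against 37.7% of windows of tested genes. A GC box (GGGCGG, either strand) was in 73.7% against 62.3%, and the CHR element of late cell cycle genes (TTTGAA or TTTAAA, either strand) in 18.4% against 19.2%. The following windows belong to the genes of the set with an entry whose p was smallest (Pcna and Mcm6) and largest (Tyms and Pola2) in LP 3M PIC against LP, with E2F sites and CCAAT boxes on either strand in capitals.
Pcna promoter, chr2:132253131-132253430, minus strand: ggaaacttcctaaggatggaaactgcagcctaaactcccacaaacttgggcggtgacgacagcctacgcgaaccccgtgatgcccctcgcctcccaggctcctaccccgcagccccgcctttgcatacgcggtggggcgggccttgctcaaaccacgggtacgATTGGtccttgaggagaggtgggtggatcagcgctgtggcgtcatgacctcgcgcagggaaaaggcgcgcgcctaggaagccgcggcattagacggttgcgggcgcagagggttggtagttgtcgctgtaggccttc
Mcm6 promoter, chr1:128359656-128359955, minus strand: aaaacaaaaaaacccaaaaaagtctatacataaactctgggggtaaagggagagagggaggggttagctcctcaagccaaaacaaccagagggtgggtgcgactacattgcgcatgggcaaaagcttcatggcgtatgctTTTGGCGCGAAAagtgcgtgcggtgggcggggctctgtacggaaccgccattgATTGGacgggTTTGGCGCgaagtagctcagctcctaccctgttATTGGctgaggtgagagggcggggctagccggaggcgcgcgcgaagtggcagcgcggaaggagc
Tyms promoter, chr5:30073576-30073875, minus strand: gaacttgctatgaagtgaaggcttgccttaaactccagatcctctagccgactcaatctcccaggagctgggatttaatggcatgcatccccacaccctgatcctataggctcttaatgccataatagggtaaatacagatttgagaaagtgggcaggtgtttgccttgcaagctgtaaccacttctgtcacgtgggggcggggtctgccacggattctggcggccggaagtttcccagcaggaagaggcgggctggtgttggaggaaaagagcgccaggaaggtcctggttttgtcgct
Pola2 promoter, chr19:5964157-5964456, minus strand: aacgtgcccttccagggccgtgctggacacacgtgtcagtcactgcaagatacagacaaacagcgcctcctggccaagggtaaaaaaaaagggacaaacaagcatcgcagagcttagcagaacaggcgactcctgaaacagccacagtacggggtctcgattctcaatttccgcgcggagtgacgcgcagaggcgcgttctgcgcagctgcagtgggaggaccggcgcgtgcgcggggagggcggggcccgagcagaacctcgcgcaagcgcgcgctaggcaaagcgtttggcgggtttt

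In the Mcm6 window the run of capitals nearest the 5′ end is a pair of overlapping E2F sites on opposite strands, at 110 and 106 bases before the start, another E2F site lies 47 bases before it, and the other capitals are CCAAT boxes. The Pcna window holds a CCAAT box on the opposite strand and no E2F site of the letters searched, and the Tyms and Pola2 windows hold neither. As a description with no test, the 13 genes with an E2F site had a median log2 change of −1.80 in LP PIC against LP (−2.93 to −0.39), and the 20 with an entry and no such site one of −1.36 (−3.58 to −0.38). The medians were −1.75 with and −1.20 without a CCAAT box, −1.69 with and −1.32 without a GC box, and −2.26 with and −1.30 without a CHR element, and the ranges overlapped for each of the 4 motifs. The sites below, chosen after their values were seen, come from genes of different roles and sizes of change. On each line the letters of a single E2F site are in capitals, with 10 flanking bases on each side, as far as the window reaches. The Mcm5 and Rfc3 lines each hold a further E2F site on the other strand, with letters left wholly or partly in lower case.
Cdc6 site, chr11:98908003-98908030, plus strand: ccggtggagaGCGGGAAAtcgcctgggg
Cdt1 site, chr8:122568037-122568064, plus strand: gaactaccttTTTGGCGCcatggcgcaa
Orc1 site, chr4:108579417-108579444, plus strand: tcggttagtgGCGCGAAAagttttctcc
Mcm5 site, chr8:75109346-75109373, plus strand: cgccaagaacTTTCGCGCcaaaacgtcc
Pole2 site, chr12:69228163-69228190, minus strand: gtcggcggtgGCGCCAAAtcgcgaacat
Rfc3 site, chr5:151651201-151651228, minus strand: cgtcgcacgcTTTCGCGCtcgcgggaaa
Uhrf1 site, chr17:56304118-56304145, plus strand: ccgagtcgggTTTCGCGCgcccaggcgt

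The site of Cdt1, which was not called against LP in the dual formulation, reads TTTGGCGC on the sense strand, and that of Pole2, which stayed low there, is the same word on the other strand. Rfc3, with the next to smallest fall in LP PIC (0.39 ± 0.07 on the log2 scale), and Uhrf1, among the deepest (2.93 ± 0.23), both carry TTTCGCGC. Rfc3 also carries TTTCCCGC on the other strand.

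The MCM helicase genes fell together with PIC. Mcm2 to Mcm7 encode the 6 subunits of the ring that unwinds DNA, and Mcm10 encodes a separate factor that helps start the fork. All 7 fell in LP 3M PIC and in LP PIC against LP, with median log2 changes of −1.57 and −1.92, and Mcm6 and Mcm7 fell in LP 3M. Mcm6 stood at 47.0, 43.3, 42.5, 56.6 and 38.6 CPM in LP 3M PIC, at 102, 114, 110.4, 129.8 and 134 CPM in LP 3M, at 47.4, 46.3, 65.6, 41.8 and 56.0 CPM in LP PIC and at 180.2, 166, 141, 167 and 178 CPM in LP, for mice 1 to 5. Its LP 3M PIC and LP PIC values overlapped each other and lay below every LP 3M value, and every LP 3M value lay below every LP value. Against LP, Mcm6 fell by 1.75 ± 0.12 on the log2 scale in LP 3M PIC (adjusted p = 4.65e-10), by 0.39 ± 0.11 in LP 3M (adjusted p = 0.0109) and by 1.65 ± 0.12 in LP PIC (adjusted p = 6.14e-09). All log2 changes carry the SE implied by the edgeR test and rest on 5 mice per condition. Mcm7 averaged 13.6 ± 3.95 CPM in LP 3M PIC, 41.9 ± 6.65 CPM in LP 3M, 11.9 ± 1.29 CPM in LP PIC and 62.5 ± 14.2 CPM in LP (SD, n = 5 each). Its exons overlap exons of the antisense genes Ap4m1 and Cops6, and it hosts Mir25 and Mir93. Mcm10 had the deepest fall of the 7 in LP PIC, by 2.40 ± 0.22, and fell by 1.57 ± 0.21 in LP 3M PIC. The changes in LP PIC were 1.30 ± 0.10 lower for Mcm3, the smallest of the 7, and 2.26 ± 0.19 lower for Mcm5.

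Licensing genes divided with the dual formulation. Orc1 and Orc6 encode subunits of the origin recognition complex, Cdc6 the ATPase that joins it, and Cdt1 the factor that brings the MCM ring to the origin. All 4 fell in LP PIC, 3 fell in LP 3M PIC, and Cdt1 fell in LP 3M. This does not hold for every gene of the complex. Orc2, Orc3, Orc4 and Orc5, counted below with other replication machinery, averaged 85.0%, 102%, 107.5% and 93.9% of their LP means in LP PIC. In LP 3M PIC they averaged 101%, 107%, 146% and 96.2%. Cdc6 stood at 4.46, 4.53, 3.51, 5.28 and 1.92 CPM in LP 3M PIC, at 11.1, 10.99, 8.90, 11.9 and 9.68 CPM in LP 3M, at 2.07, 2.12, 3.11, 1.68 and 2.13 CPM in LP PIC and at 16.9, 13.2, 7.28, 11.2 and 12.6 CPM in LP. Cdc6 was below every LP value in each LP PIC and LP 3M PIC library, while LP 3M and LP overlapped. It fell by 1.51 ± 0.23 in LP 3M PIC (adjusted p = 1.47e-05) and by 2.41 ± 0.24 in LP PIC (adjusted p = 1.89e-07), and the change in LP 3M was −0.10 ± 0.22 (adjusted p = 0.749). Cdt1 stood at 92.1, 87.8, 64.3, 91.0 and 62.4 CPM in LP 3M PIC, at 63.6, 64.0, 68.9, 70.7 and 88.5 CPM in LP 3M, at 37.0, 41.2, 47.6, 39.9 and 55.5 CPM in LP PIC and at 95.4, 103, 94.0, 97.5 and 115 CPM in LP. Here the order was different, since each LP 3M PIC value was above each LP PIC value and overlapped the LP 3M values, and LP was above all other libraries. Cdt1 changed by −0.23 ± 0.13 in LP 3M PIC (adjusted p = 0.129, lower in 5 of 5 mice), and fell by 0.40 ± 0.13 in LP 3M (adjusted p = 0.0185) and by 1.15 ± 0.13 in LP PIC (adjusted p = 8.52e-07). With plain library totals in place of TMM the change in LP 3M PIC was −0.34 and was called (adjusted p = 0.025). Orc1, the least abundant of the set per length, averaged 1.89 ± 0.623 CPM in LP 3M PIC, 4.44 ± 0.745 CPM in LP 3M, 0.799 ± 0.246 CPM in LP PIC and 3.83 ± 1.06 CPM in LP, and Orc6, whose exons overlap the antisense gene Vps35, fell by 0.36 ± 0.11 in LP 3M PIC and by 0.87 ± 0.11 in LP PIC.

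Helicase activation genes fell in both formulations with PIC and not in LP 3M. Cdc45 and the GINS subunits encoded by Gins1 and Gins2 bind the MCM ring and turn it into the active helicase. Gins1 stood at 2.74, 2.52, 3.19, 2.67 and 2.22 CPM in LP 3M PIC, at 5.99, 5.22, 5.99, 7.30 and 8.02 CPM in LP 3M, at 1.74, 2.03, 2.54, 2.65 and 2.36 CPM in LP PIC and at 10.2, 9.34, 7.02, 7.71 and 8.76 CPM in LP. LP 3M PIC and LP PIC overlapped and lay below every LP 3M and LP value. Gins1 fell by 1.58 ± 0.15 in LP 3M PIC (adjusted p = 3.62e-08) and by 1.88 ± 0.15 in LP PIC (adjusted p = 1.22e-08), and changed by −0.29 ± 0.14 in LP 3M (adjusted p = 0.109, lower in 5 of 5 mice). Cdc45 fell by 1.55 ± 0.22 and Gins2 by 1.09 ± 0.13 in LP 3M PIC.

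Primase and polymerase genes differed widely in their response, from −2.80 for Pole to −0.38 for Pola2 in LP PIC. Prim1 and Prim2 encode primase, Pola1 and Pola2 the catalytic and B subunits of polymerase alpha, Pole and Pole2 subunits of polymerase epsilon, which copies the leading strand, and Pold1 the catalytic subunit of polymerase delta. All 7 fell in LP PIC, 6 in LP 3M PIC and 0 in LP 3M. Pole2 stood at 2.00, 3.08, 1.99, 2.20 and 1.75 CPM in LP 3M PIC, at 5.40, 5.90, 4.81, 5.66 and 7.32 CPM in LP 3M, at 2.50, 3.02, 2.80, 2.74 and 3.86 CPM in LP PIC and at 7.57, 9.14, 6.62, 7.27 and 7.60 CPM in LP. Pole2 was lower in every LP 3M PIC and LP PIC library than in any LP 3M or LP library. It fell by 1.66 ± 0.16 in LP 3M PIC (adjusted p = 4.65e-08) and by 1.31 ± 0.16 in LP PIC (adjusted p = 1.77e-06). Its partner Pole had the deepest fall of the 7, by 2.80 ± 0.23 in LP PIC, and fell by 2.07 ± 0.23 in LP 3M PIC. Pola2 stood at 27.9, 27.7, 35.2, 32.8 and 25.8 CPM in LP 3M PIC, at 32.3, 34.0, 31.1, 38.4 and 33.6 CPM in LP 3M, at 24.6, 25.9, 26.2, 27.6 and 27.7 CPM in LP PIC and at 38.3, 44.2, 30.4, 32.0 and 33.1 CPM in LP. Its LP 3M PIC values overlapped those of every other condition, and each LP PIC value lay below each LP 3M and LP value. Pola2 had the smallest fall of the 38 in LP PIC, by 0.38 ± 0.10 (adjusted p = 0.00319), and changed by −0.14 ± 0.10 in LP 3M PIC (adjusted p = 0.23, lower in 3 of 5 mice), a change called with plain library totals (−0.25, adjusted p = 0.0345). Its catalytic partner Pola1 fell by 1.58 ± 0.18 in LP 3M PIC and by 1.80 ± 0.18 in LP PIC.

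The clamp gene Pcna was the most abundant member and the one that fell most in LP 3M. PCNA is the ring that holds polymerases on DNA, and Rfc3, Rfc4 and Rfc5 encode subunits of the clamp loader that opens it. Pcna stood at 114, 125, 122, 119.8 and 112 CPM in LP 3M PIC, at 207, 246, 200.1, 236 and 269.8 CPM in LP 3M, at 131, 138, 145, 131 and 152 CPM in LP PIC and at 539, 640.5, 350.2, 409 and 392.4 CPM in LP. The 4 conditions were fully separated, in the order LP 3M PIC, LP PIC, LP 3M and LP from low to high. Pcna fell by 1.85 ± 0.12 in LP 3M PIC (adjusted p = 4.14e-10), by 0.90 ± 0.12 in LP 3M (adjusted p = 1.23e-05) and by 1.69 ± 0.12 in LP PIC (adjusted p = 6.52e-09). Per kilobase of exon, Pcna had 194 CPM in LP, the next member, Mcm6, 35.7 CPM, and the lowest, Orc1, 1.10 CPM. The clamp loader genes of the set moved less. Rfc3 fell by 0.55 ± 0.07 in LP 3M PIC, by 0.22 ± 0.07 in LP 3M and by 0.39 ± 0.07 in LP PIC, with the smallest SE of the set. Rfc4, which overlaps the antisense gene Eif4a2, fell by 0.79 ± 0.15 in LP 3M PIC and by 1.00 ± 0.15 in LP PIC. Rfc5, which overlaps the antisense gene Wsb2, fell by 1.19 ± 0.16 in LP 3M PIC and by 0.95 ± 0.15 in LP PIC, and its change of −0.37 ± 0.15 in LP 3M was called when the mouse was a block (adjusted p = 0.0368, against 0.0603 without it). Rfc1 and Rfc2 were counted with other replication machinery. They averaged 66.5% and 126% of their LP means in LP PIC, and 56.15% and 73.6% in LP 3M PIC. Rfc2 ranged from 58.35 to 90.6 CPM in LP PIC and from 49.9 to 65.0 CPM in LP. The sources used here do not give the strand setting of the counting. It is therefore not known whether reads in the overlap with an antisense gene were counted or left out as ambiguous.

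Lagging strand and single strand binding genes fell in both formulations with PIC. Fen1 encodes the flap endonuclease that trims Okazaki fragments, and Lig1 the ligase that joins them. Fen1, which overlaps the antisense gene Tmem258, stood at 20.7, 19.8, 24.6, 21.3 and 17.9 CPM in LP 3M PIC, at 40.6, 43.9, 39.4, 47.9 and 48.2 CPM in LP 3M, at 24.6, 23.0, 25.01, 23.5 and 25.4 CPM in LP PIC and at 68.2, 71.2, 43.5, 54.3 and 52.6 CPM in LP. LP 3M PIC and LP PIC overlapped each other below all LP 3M and LP values, and LP 3M overlapped LP. Fen1 fell by 1.35 ± 0.11 in LP 3M PIC (adjusted p = 3.45e-09), by 0.28 ± 0.10 in LP 3M (adjusted p = 0.0371) and by 1.20 ± 0.11 in LP PIC (adjusted p = 3.44e-08). Lig1 fell by 1.80 ± 0.16 in LP 3M PIC and by 2.14 ± 0.16 in LP PIC. Rpa1 and Rpa2 encode subunits of replication protein A, which coats single-stranded DNA. Rpa1 stood at 49.0, 44.5, 49.3, 50.6 and 41.9 CPM in LP 3M PIC, at 68.5, 71.4, 70.3, 85.7 and 79.3 CPM in LP 3M, at 40.4, 39.3, 47.8, 33.1 and 45.4 CPM in LP PIC and at 99.6, 106, 73.8, 87.9 and 95.4 CPM in LP. LP 3M PIC and LP PIC again overlapped below all LP 3M and LP values. Rpa1 fell by 0.86 ± 0.10 in LP 3M PIC (adjusted p = 2.92e-07) and by 1.12 ± 0.10 in LP PIC (adjusted p = 2.75e-08), and Rpa2 fell by 0.50 ± 0.14 in LP 3M PIC and by 1.01 ± 0.14 in LP PIC.

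Nucleotide supply genes held the deepest falls and the widest disagreement between the formulations. Rrm1 and Rrm2 encode the subunits of ribonucleotide reductase, which makes deoxyribonucleotides. Tk1 encodes the thymidine kinase of S phase, Tyms the synthase that makes thymidylate, and Dut the enzyme that keeps uracil out of DNA by clearing dUTP. Rrm2 averaged 10.2 ± 3.73 CPM in LP 3M PIC, 54.6 ± 14.1 CPM in LP 3M, 6.76 ± 1.85 CPM in LP PIC and 84.1 ± 28.2 CPM in LP (SD, n = 5 each). It fell by 2.92 ± 0.30 in LP 3M PIC and by 3.58 ± 0.31 in LP PIC. Tk1, which overlaps the antisense gene Afmid, fell by 2.65 ± 0.25 in LP 3M PIC and by 3.49 ± 0.26 in LP PIC, and Rrm1 fell by 1.73 ± 0.16 and by 2.18 ± 0.16 in the same order.

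Dut and Tyms, enzymes of the same thymidylate route, moved apart. Dut stood at 2.97, 3.59, 4.07, 3.92 and 4.31 CPM in LP 3M PIC, at 9.93, 12.7, 10.9, 13.0 and 17.3 CPM in LP 3M, at 5.08, 5.83, 8.54, 6.66 and 8.01 CPM in LP PIC and at 20.1, 17.4, 12.2, 17.6 and 18.6 CPM in LP. Every LP 3M PIC value was below every LP PIC value, and every LP PIC value below every LP 3M and LP value. Dut fell by 2.07 ± 0.17 in LP 3M PIC (adjusted p = 4.28e-09) and by 1.28 ± 0.16 in LP PIC (adjusted p = 2.66e-06). Tyms stood at 17.0, 13.8, 13.2, 18.6 and 7.82 CPM in LP 3M PIC, at 16.3, 17.9, 14.8, 20.2 and 12.3 CPM in LP 3M, at 3.85, 3.63, 5.43, 5.65 and 5.18 CPM in LP PIC and at 21.1, 18.3, 12.4, 15.7 and 17.96 CPM in LP. Its LP 3M PIC values overlapped LP 3M and LP, and each LP PIC value lay below every other library. Tyms fell by 1.80 ± 0.21 in LP PIC (adjusted p = 1.6e-06) and changed by −0.16 ± 0.20 in LP 3M PIC (adjusted p = 0.518, lower in 3 of 5 mice) and by 0.05 ± 0.20 in LP 3M (adjusted p = 0.875). Among the LP 3M PIC libraries mouse 5 was the lowest for Tyms and the highest for Dut.

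**Figure D2:**
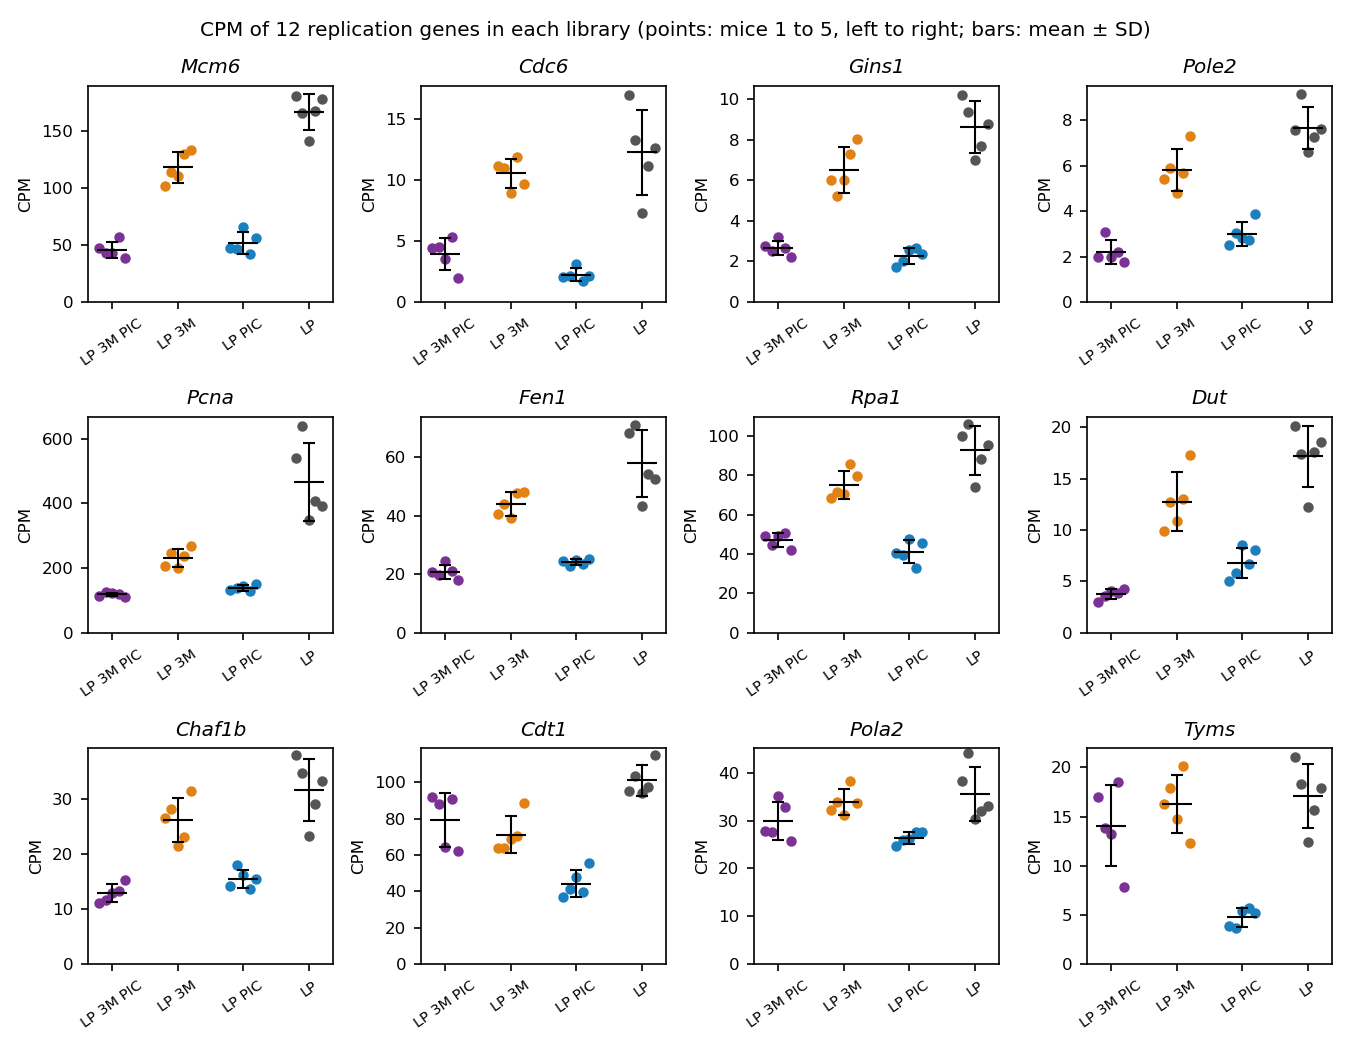
CPM of the 12 members described library by library, one panel per gene with its own linear axis from 0. Points are mice 1 to 5 from left to right in LP 3M PIC, LP 3M, LP PIC and LP, and black marks are the mean ± SD. Pcna has 4 separate levels, Cdt1 and Tyms are lowest in LP PIC, and Dut is lowest in LP 3M PIC.

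Chromatin assembly and histone mRNA genes followed the set. Chaf1a and Chaf1b encode subunits of the factor that deposits histones behind the fork, Uhrf1 the reader that brings DNA methyltransferase to newly copied DNA, and Slbp the protein that binds histone mRNA. Chaf1b stood at 11.05, 11.7, 13.0, 13.3 and 15.3 CPM in LP 3M PIC, at 26.6, 28.2, 21.6, 23.2 and 31.5 CPM in LP 3M, at 14.2, 17.97, 16.2, 13.6 and 15.4 CPM in LP PIC and at 38.02, 34.8, 23.3, 29.1 and 33.3 CPM in LP. LP 3M PIC and LP PIC overlapped and lay below all LP 3M and LP values. Chaf1b fell by 1.19 ± 0.12 in LP 3M PIC (adjusted p = 6.16e-08) and by 0.99 ± 0.12 in LP PIC (adjusted p = 1.41e-06). Chaf1a, which overlaps the antisense gene Ubxn6, fell by 1.45 ± 0.16 in LP 3M PIC and by 1.70 ± 0.16 in LP PIC. Uhrf1 averaged 17.6 ± 5.99 CPM in LP 3M PIC, 68.0 ± 8.600 CPM in LP 3M, 9.90 ± 2.02 CPM in LP PIC and 78.1 ± 17.7 CPM in LP, and fell by 2.02 ± 0.22 in LP 3M PIC and by 2.93 ± 0.23 in LP PIC. Slbp fell by 0.50 ± 0.10 in LP 3M PIC, by 0.30 ± 0.10 in LP 3M and by 0.61 ± 0.10 in LP PIC.

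**Figure D3:**
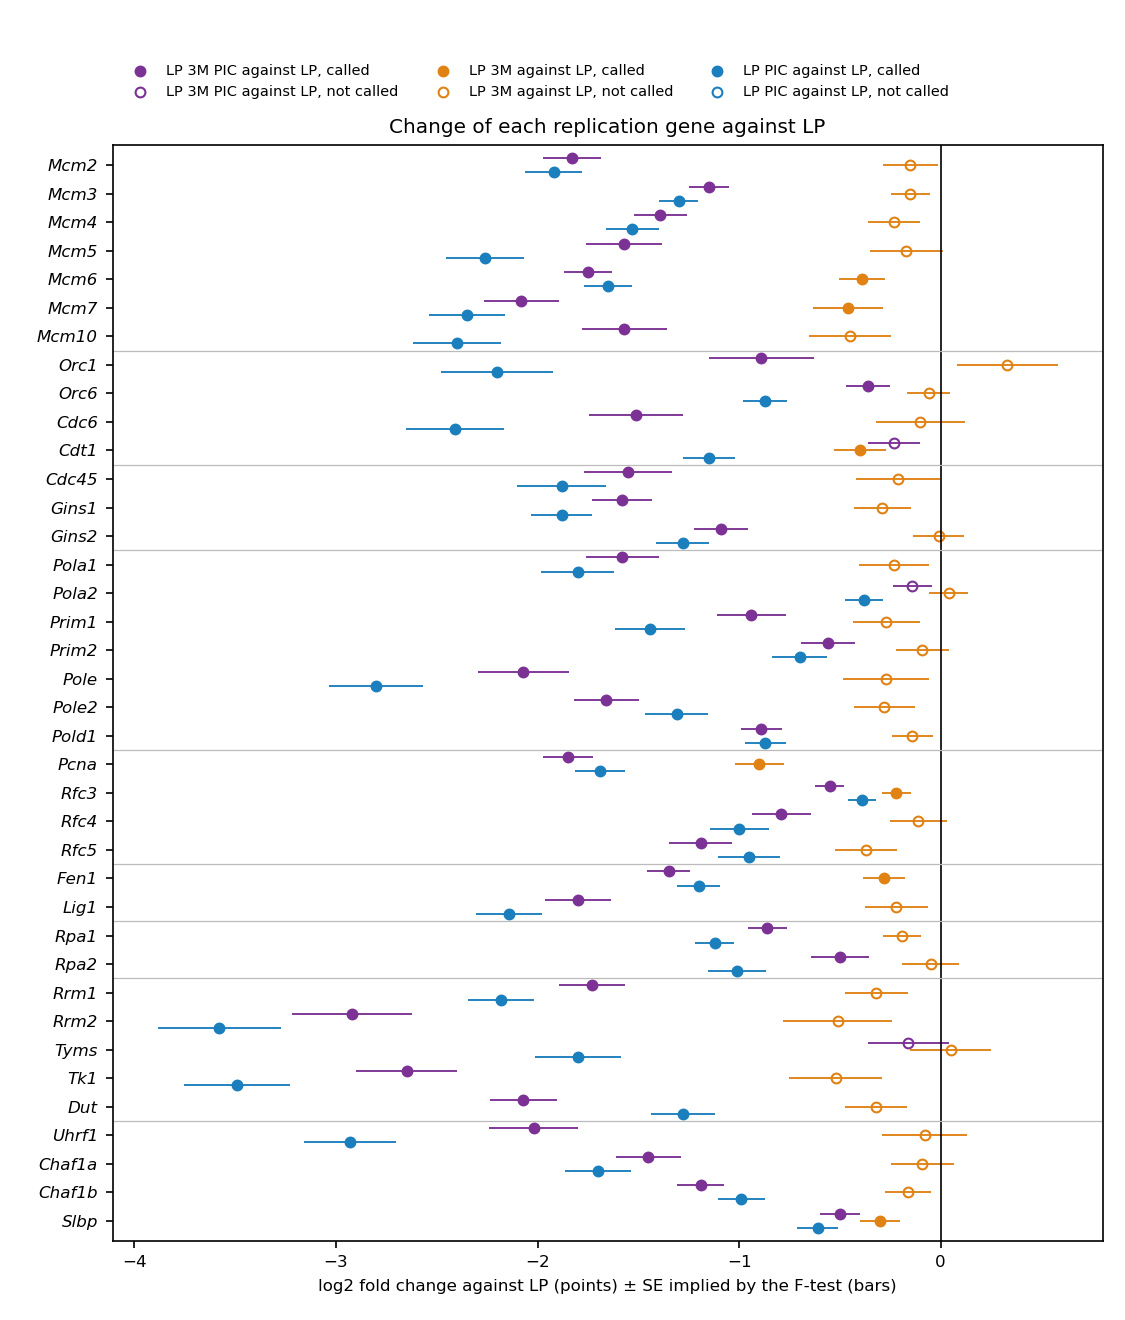
Log2 fold change against LP of each of the 38 genes (horizontal axis, points ± SE) in LP 3M PIC, LP 3M and LP PIC, with role groups parted by grey lines. Filled points were called at an adjusted p under 0.05. All 38 LP PIC points are filled, the LP 3M PIC points are open for Cdt1, Pola2 and Tyms, and 7 LP 3M points are filled.

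The falls in LP 3M were few and depended on the libraries used. The 7 genes were Mcm6, Mcm7, Cdt1, Pcna, Rfc3, Fen1 and Slbp, of which Mcm6, Cdt1, Pcna and Rfc3 had no overlap with LP (4 of 38, beside 19.4% of all tested genes entirely below LP). Of the 38 genes, 35 were lower in LP 3M than in LP, called or not. The share of all tested genes that were lower was not computed, and their median log2 change was −0.01. The 38 are not independent of each other, since LP of mouse 3 had the lowest LP level of 37 of them. The count of falls was 1 without the libraries of mouse 1, when Pcna alone was called, and 2 without mouse 2. Without the LP library of mouse 3, left out after its low values were seen, it was 14. For these sets of libraries the share of all tested genes called was not computed. With plain library totals 17 fell, but the median of all tested genes was then −0.12 and that of the 38 was −0.33.

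Adding 3M to PIC raised some of these genes and lowered 1. In LP 3M PIC against LP PIC 15 rose and Dut fell by 0.79 ± 0.17 (adjusted p = 0.000874), beside 23.1% of all tested genes called higher and 21.4% called lower. The genes that rose were Mcm5, Mcm10, Orc1, Orc6, Cdc6, Cdt1, Pola2, Prim1, Pole, Rpa1, Rpa2, Rrm1, Tyms, Tk1 and Uhrf1. They include all 4 licensing genes of the set. Tyms rose by 1.64 ± 0.21 (adjusted p = 9.96e-06), Orc1 by 1.31 ± 0.28 (adjusted p = 0.00111) and Cdt1 by 0.92 ± 0.13 (adjusted p = 2.15e-05). Tyms, Cdt1 and Orc6 were higher in every LP 3M PIC library than in any LP PIC library, and Dut, Pcna and Rfc3 were lower in every one. Over all tested genes 10.2% lay entirely above and 14.2% entirely below, larger shares than 3 of 38 in either direction. The rise of Pola2 was lost with the mouse as a block (adjusted p = 0.0516, against 0.045 without it). The count of rises was 7 without mouse 4 and 9 without mouse 1. Leaving out the LP 3M PIC library of mouse 5, chosen after its values were seen, gave 20. For these sets of libraries the share of all tested genes called was not computed.

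Adding PIC to 3M lowered most of the set. In LP 3M PIC against LP 3M 34 of the 38 fell and 0 rose (median −1.14), beside 21.0% of all tested genes called lower and 20.5% called higher, and 32 lay entirely below LP 3M, beside 12.8% of all tested genes. The exceptions were Cdt1 (0.17 ± 0.13, adjusted p = 0.3, but 0.335 and called higher without mouse 5, adjusted p = 0.0157), Pola2 (−0.18 ± 0.10, adjusted p = 0.144), Tyms (−0.20 ± 0.20, adjusted p = 0.441) and Slbp (−0.20 ± 0.10, adjusted p = 0.11). Rrm2 fell by 2.41 ± 0.29, Tk1 by 2.13 ± 0.25 and Uhrf1 by 1.93 ± 0.22, and Dut by 1.75 ± 0.17. Between the single formulations, 37 of the 38 were higher in LP 3M than in LP PIC (median 1.26), beside 24.4% of all tested genes called higher and 22.7% called lower. The exception was Rfc3 (0.17 ± 0.07, adjusted p = 0.0582).

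The fall with PIC was smaller in the presence of 3M for some genes. The interaction is the log2 change of LP 3M PIC against LP 3M minus that of LP PIC against LP, so that a value above 0 means a smaller fall with PIC when 3M was present, and it assumes equal amounts of each adjuvant in the single and dual formulations. It was above 0 for 35 of the 38 and called for 10, all above 0, beside 3.82% of all tested genes called higher and 4.62% called lower. The share of all tested genes above 0 was not computed, and their median interaction was 0.001. The value was 1.32 ± 0.18 for Cdt1 (adjusted p = 0.000215), 1.59 ± 0.29 for Tyms (adjusted p = 0.00284), 1.28 ± 0.30 for Mcm10 (adjusted p = 0.012), 1.36 ± 0.35 for Tk1 (adjusted p = 0.0223) and 0.74 ± 0.17 for Pcna (adjusted p = 0.0118). Orc6, Rrm1, Rpa1, Mcm5 and Uhrf1 had values between 0.45 and 1.00. Dut (−0.47 ± 0.23, adjusted p = 0.214), Pole2 (−0.08 ± 0.22) and Chaf1b (−0.04 ± 0.16) were below 0 and not called. For Cdt1, LP 3M PIC averaged 79.5 ± 14.9 CPM and LP 3M 71.1 ± 10.2 CPM, while LP PIC averaged 44.2 ± 7.40 CPM and LP 101 ± 8.55 CPM. With the mouse as a block, the calls of Mcm5 (adjusted p = 0.0548), Rpa1 (adjusted p = 0.051) and Uhrf1 (adjusted p = 0.0696) were lost and those of Prim1 (adjusted p = 0.0326) and Rpa2 (adjusted p = 0.0472) gained.

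The number of called interactions depended on the mice and libraries used. It was 1 without mouse 1, which left Cdt1, 2 without mouse 2, 3 without mouse 4 and 5 without the LP library of mouse 2. It was 18 without mouse 5, and 17 and 21 without the LP library of mouse 3 and the LP 3M PIC library of mouse 5, the libraries left out for their low values. Without a filter on low counts it was 6. How many of all tested genes were called in these alternatives was not computed. Cdt1 was called in every one of these alternatives, with values from 1.19 to 1.54.

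**Figure D4:**
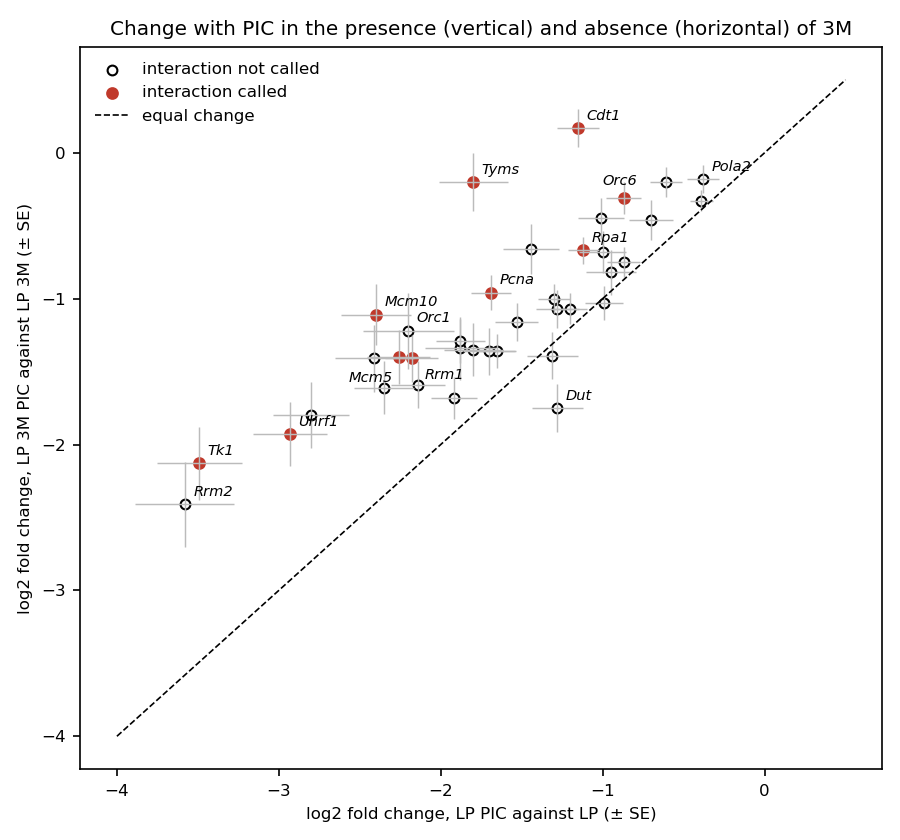
Each point is one of the 38 genes, with its log2 change in LP PIC against LP on the horizontal axis and in LP 3M PIC against LP 3M on the vertical axis (bars, SE). Points above the dashed line fell less with PIC when 3M was present. Red points had a called interaction. Tyms, Tk1 and Cdt1 stand farthest above the line, by 1.59, 1.36 and 1.32, and Dut lies below it.

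Other genes of replication, listed by function, also fell in part. Of 42 other replication machinery genes 26 fell and 6 rose in LP 3M PIC against LP, 10 fell and 1 rose in LP 3M, and 27 fell and 2 rose in LP PIC. Of all tested genes, 30.6% were called lower and 31.7% higher in LP 3M PIC. These shares were 19.5% and 20.0% in LP 3M, and 22.7% and 22.7% in LP PIC. Gmnn, the inhibitor of Cdt1, averaged 9.28 CPM in LP 3M PIC, 21.7 CPM in LP 3M, 16.3 CPM in LP PIC and 37.7 CPM in LP, and fell in all 3 formulations (by 1.90 ± 0.11 in LP 3M PIC). Wdhd1, a protein that links polymerase alpha to the fork, fell by 1.66 ± 0.13 and Clspn, the checkpoint mediator Claspin, by 2.68 ± 0.23 in LP 3M PIC. Dnmt1, the maintenance DNA methyltransferase, fell by 1.00 ± 0.14 in LP 3M PIC and by 0.44 ± 0.14 in LP PIC. Pole4, a small subunit of polymerase epsilon, rose by 0.75 ± 0.13 in LP 3M PIC and Asf1a, a histone chaperone, by 0.67 ± 0.15, against the direction of the list. Of 20 replication fork repair genes 18 fell in LP 3M PIC and 18 in LP PIC, and 2 fell and 1 rose in LP 3M. The falls in LP 3M were 8 without the LP library of mouse 3 and 5 without the LP 3M PIC library of mouse 5. For these sets of libraries the share of all tested genes called was not computed. Among the fork repair genes Msh6, a gene of mismatch repair, fell by 1.07 ± 0.09 in LP 3M PIC, and Tonsl, a factor for stalled forks, by 1.33 ± 0.11.

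Nucleotide supply outside the set was mixed. Of 17 other genes 7 fell and 3 rose in LP 3M PIC against LP, 3 fell and 6 rose in LP 3M, and 5 fell and 1 rose in LP PIC. Beside these counts, 30.6% of all tested genes were called lower and 31.7% higher in LP 3M PIC. The shares were 19.5% and 20.0% in LP 3M, and 22.7% and 22.7% in LP PIC. Samhd1, which breaks down deoxyribonucleotides and is known to limit them in macrophages, averaged 504 CPM (370.4 to 569.6) in LP 3M PIC, 353 CPM (236 to 459) in LP 3M, 476 CPM (334 to 623) in LP PIC and 300.3 CPM (204 to 377) in LP. It rose by 0.86 ± 0.21 in LP 3M PIC (adjusted p = 0.0019) and by 0.71 ± 0.21 in LP PIC (adjusted p = 0.0115), while Rrm1 and Rrm2 fell in the same libraries. Tk2, the mitochondrial thymidine kinase, fell by 0.88 ± 0.08, Paics, an enzyme of purine synthesis, by 0.63 ± 0.06 and Umps, an enzyme of pyrimidine synthesis, by 0.46 ± 0.07 in LP 3M PIC, and Nme1, a nucleoside diphosphate kinase, rose by 0.40 ± 0.10.

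Among 19 E2F and RB factors 13 fell and 2 rose in LP 3M PIC, 8 fell and 1 rose in LP 3M, and 12 fell and 1 rose in LP PIC. E2f1, an activator, fell by 0.61 ± 0.12 in LP 3M PIC and by 0.61 ± 0.12 in LP PIC. E2f7, a repressor that is itself a target of E2F, fell by 3.61 ± 0.33 in LP 3M PIC, Foxm1, a driver of late cell cycle genes, by 2.58 ± 0.19 and Tfdp2, a partner of E2F, by 2.23 ± 0.18, while E2f4 and E2f5, which act mainly as repressors, rose by 0.62 ± 0.06 and 0.67 ± 0.17. Of 20 genes of G1 to S control 10 fell and 3 rose in LP 3M PIC, 7 fell and 1 rose in LP 3M, and 13 fell and 0 rose in LP PIC. For both lists, the shares of all tested genes called lower and higher were 30.6% and 31.7% in LP 3M PIC. They were 19.5% and 20.0% in LP 3M, and 22.7% and 22.7% in LP PIC. Ccnd1, a cyclin that responds to growth factors, averaged 13.9 CPM in LP 3M PIC, 117 CPM in LP 3M, 30.1 CPM in LP PIC and 376 CPM in LP. Ccnd1 fell by 4.62 ± 0.29 in LP 3M PIC, the CDK inhibitor Cdkn2c by 3.01 ± 0.19 and Fbxo5, an inhibitor of the anaphase-promoting complex, by 2.38 ± 0.18. In the other direction, Cdkn2b, another CDK inhibitor, rose by 1.99 ± 0.38 and the cyclin Ccnd2 by 0.87 ± 0.35 in LP 3M PIC. Cdkn1a, the inhibitor p21, was not called against LP in any formulation (0.22 ± 0.16 in LP 3M PIC, −0.31 ± 0.16 in LP 3M and 0.31 ± 0.16 in LP PIC).

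Mitosis genes had larger median falls than replication genes. All 35 fell in LP 3M PIC and in LP PIC and 32 fell in LP 3M, with median log2 changes of −2.50, −0.75 and −3.05 in LP 3M PIC, LP 3M and LP PIC, against −1.42, −0.22 and −1.59 for the 38 replication genes. Over all tested genes 30.6%, 19.5% and 22.7% were called lower in LP 3M PIC, LP 3M and LP PIC. A test of the difference between the lists was not made. Kif23, Nusap1 and Cenpa, genes of the midbody, spindle and centromere, fell by 3.51 ± 0.24, 3.07 ± 0.23 and 3.30 ± 0.26 in LP 3M PIC. Mki67, the proliferation marker Ki-67, averaged 88.4 CPM in LP 3M PIC, 152 CPM in LP 3M, 41.2 CPM in LP PIC and 278 CPM in LP, and its interaction of 1.94 ± 0.26 was called. An interaction above 0 was called for 26 of the 35 mitosis genes, beside 3.82% of all tested genes.

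**Figure D5:**
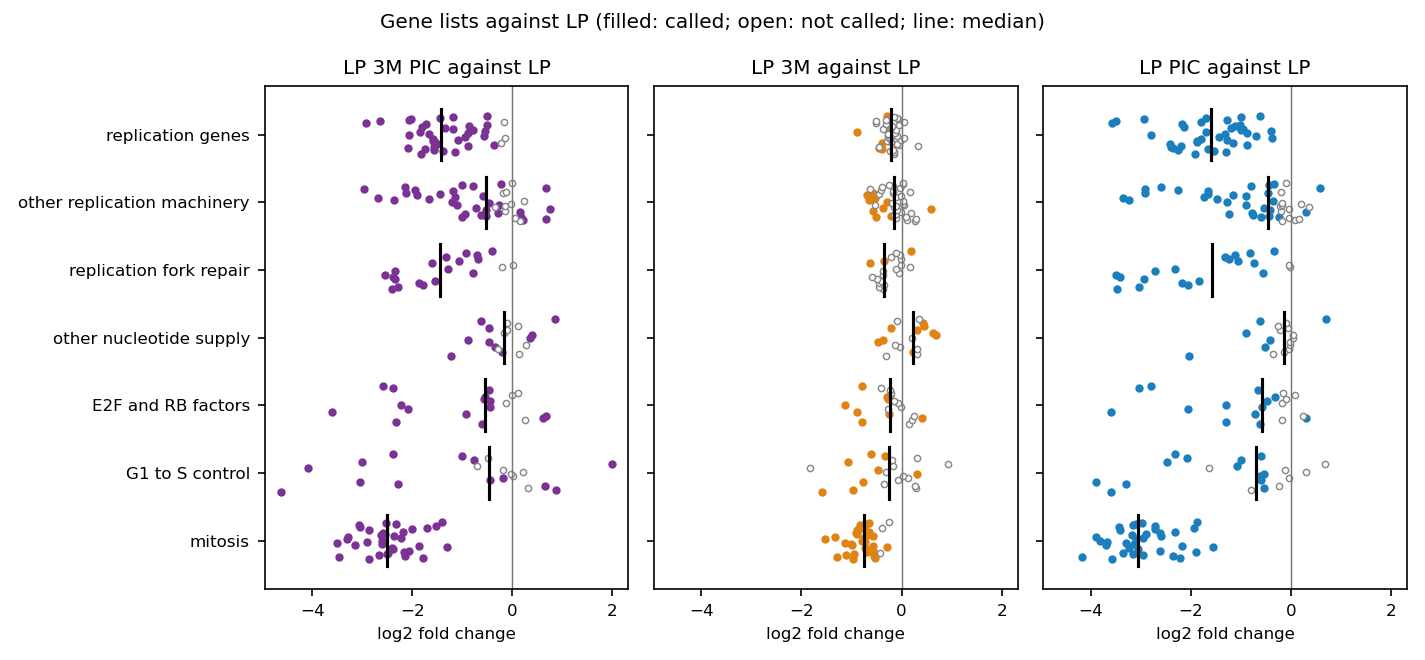
Log2 fold changes against LP (shared horizontal axis) of the 38 replication genes and of 6 related lists, in LP 3M PIC, LP 3M and LP PIC. Each point is a gene, filled where called, and the black line is the median of the list. The median of the mitosis list is the farthest to the left in each panel, and filled points to the right of 0 in LP 3M PIC are found in the lists of other machinery, nucleotide supply, E2F factors and G1 control.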

How the data were processed

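Gene counts were measured by RNA-seq in BMDM of 5 mice under 4 conditions. Libraries were stranded and selected for poly(A) RNA, per the labels' protocols. The authors deposited a raw count for each gene symbol, not normalised. Tools named in the submitters' processing notes are HTSeq 0.13.5, STAR 2.7.11b, DESeq2 1.44.0 and FastQC 0.11.1, with the GRCm38 build. The sources used here give neither the annotation nor the strand setting. Reads outside genes (5.94 to 8.58%) and ambiguous reads (1.14 to 1.90%) were left out of library sizes and tests. Ambiguous reads made up 1.33 to 1.78% in LP 3M PIC and 1.66 to 1.90% in LP PIC. In LP 3M they made up 1.19 to 1.39% and in LP 1.14 to 1.34%, and the part of this difference in the results was not tested. Totals of 9740528 to 23874805 gene counts put a floor of 3 counts at 0.126 to 0.308 CPM, which covers counting error only. All 190 pairs of libraries differed beyond sampling noise (chi-square per degree of freedom 7.45 to 539).

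The main test used edgeR 4.0.16 (R 4.3.3), with DESeq2 1.42.0 as an alternative. Genes were kept by filterByExpr (minimum count 10, minimum total 15), scaled by TMM (factors 0.945 to 1.07) and tested by the two-sided quasi-likelihood F-test with robust dispersion, in 1 model of 20 libraries with 7 contrasts, and adjusted by Benjamini-Hochberg over 12132 genes. The SE was derived from F as the size of the log2 change over its root. Printed CPM use plain gene totals. Libraries of the same number come from the same mouse, and their deviations from the condition means correlated in all 30 pairs (0.137 to 0.541), so the fit with the mouse as a block is given where it changes a call. The test was checked on simulated counts that held no mouse effect and no interaction, so the check does not cover the pairing or the interaction calls. Positions and exon lengths come from GENCODE M21 on GRCm38, and tables and figures were made with Python 3.11.15, pandas 2.3.3, numpy 2.4.6 and matplotlib 3.10.9.

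Members, lists and tests were chosen with earlier results of these data known. Values for every library are given for the member with the smallest p in each role group and for those not called in LP 3M PIC against LP. From each related list the 3 genes with the smallest p in that contrast and up to 2 against the direction of the list are named, with Samhd1, E2f1, Dnmt1, Gmnn, Cdkn1a and Mki67. An item that this rule names is not reported here. Means and SD named for other members illustrate their role group. Alternatives were other scalings, DESeq2, no filter, the mouse block, only the groups compared, and leaving out mice or libraries.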

Additional observations from a re-analysis of the deposited data

Results flagged for a closer look

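Cdt1 in LP 3M of mouse 5, at 88.5 CPM, stood far above the other 4 libraries of its group (63.6 to 70.7 CPM). It was the only such library among 48 groups looked at for the 12 genes described library by library. Chance alone flags about 1 in 20 groups, so a single flag among 48 is no more than chance would give. Leaving this library out changes the count of falls in LP 3M against LP to 10, and the share of all tested genes called was not computed.

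The change with PIC differed between cells with and without 3M, by the test of the interaction, for 10 genes. The log2 values were 1.32 for Cdt1, 1.59 for Tyms, 0.74 for Pcna, 1.28 for Mcm10, 1.36 for Tk1, 0.56 for Orc6, 0.77 for Rrm1, 0.45 for Rpa1, 0.87 for Mcm5 and 1.00 for Uhrf1. The calls of Mcm5, Rpa1 and Uhrf1 lay close to the threshold and were lost with the mouse as a block.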

How the results depend on the processing

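Over 266 pairs of a member and a contrast, 4218 values were recomputed, of which 3991 kept direction and side of the threshold, 109 lost the call, 84 gained it and 34 turned direction, none of them called in the first place. The falls in LP PIC against LP stayed at 38 in every alternative, those in LP 3M PIC against LP at 34 to 37, those in LP 3M PIC against LP 3M at 33 to 34 (with 0 to 1 rises, Cdt1 without mouse 5), and the rises in LP 3M against LP PIC at 36 to 37. The falls in LP 3M against LP were 17 with plain library totals and 1 to 14 when a mouse or library was left out. The rises in LP 3M PIC against LP PIC were 7 to 20 and the called interactions 1 to 21 when a mouse or library was left out, and the interactions were 6 without a filter. The cause was not tested, and the share of all tested genes called under each alternative was not computed. With the mouse as a replicate block 259 of the 266 values kept direction and side of the threshold, the counts were 8 for falls in LP 3M, 14 for rises in LP 3M PIC against LP PIC and 9 for interactions, and no count moved by more than 1.5 times.

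With plain library totals the change in LP 3M against LP was −0.068 for Pola2 and −0.068 for Tyms, and the interaction of Chaf1b was 0.006. Leaving out a mouse or library turned the direction of further small changes. In LP 3M PIC against LP PIC the range was −0.062 to 0.22 for Mcm2, −0.26 to 0.018 for Mcm6 and −0.10 to 0.10 for Pold1. In LP 3M against LP it was −0.24 to 0.016 for Cdc6, −0.12 to 0.059 for Gins2, −0.051 to 0.12 for Pola2, −0.20 to 0.046 for Prim2, −0.17 to 0.061 for Rpa2, −0.082 to 0.15 for Tyms and −0.20 to 0.047 for Uhrf1. For the interaction it was −0.30 to 0.21 for Pole2 and −0.10 to 0.047 for Chaf1b, and in LP 3M PIC against LP it was −0.31 to 0.019 for Tyms. Leaving out the LP library of mouse 3 or the LP 3M PIC library of mouse 5 was chosen after seeing the data. The lowest count of a member in a library was 11, and the part of depth in the calls was not tested.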
